A study of Mus musculus with 16 samples.

Results

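The droplets described here are CD4 T cells of the mouse spleen that carried transcripts of effector-memory cells. They were chosen by measured values. A droplet was taken when its raw antibody counts were at least 40 for the T-cell receptor (TCR) and 100 for CD4, below 15 for CD8a and below 100 for B220. It also needed 2 or more unique molecular identifiers (UMIs, each counting 1 captured RNA molecule) summed over S100a4, S100a6, Itgb1 and Ccl5, and under 2 UMIs summed over the regulatory genes Foxp3, Ikzf2, Ctla4 and Il2ra. Of 7097 droplets in all, 327 passed the antibody gate and 58 met the whole rule, 30 in the library Main1 and 28 in Main2. They were 17.7% of the gate (95% exact binomial interval 13.8 to 22.3), with 17.3% in Main1 and 18.2% in Main2.

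Naive CD4 T cells circulate through lymphoid organs by means of homing receptors such as the chemokine receptor CCR7, and hold the transcription factors of the TCF and LEF family. After meeting antigen some of their progeny persist as memory cells. Effector-memory cells among them lose the receptors for lymph node entry, carry more CD44 and integrins, and make cytokines and chemokines quickly when stimulated. The spleen, which filters blood, holds such cells along with naive and regulatory CD4 T cells.

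All samples came from spleens of female BALB/cJ mice of 9 months, whose red cells were lysed for 5 minutes, and the design text speaks of a pair of spleens. Cells were read by CITE-seq, which counts polyadenylated RNA and DNA-tagged antibodies in the same droplet. The 16 samples form 4 groups of 4, RNA and antibody tags for each of the sources Main1 and Main2. The deposited tables do not separate the 4 samples of a group, so each source was 1 library and the values below rest on 2 libraries. Nothing in the labels ties Main1 or Main2 to an animal, so the p-values measure only the spread between these libraries, which may be technical. There is no treatment or genotype to compare. The comparisons set the effector-memory droplets against all 269 other droplets of the gate, and against the 69 of these that had 2 or more UMIs of the 4 regulatory genes (called regulatory-like here). The remaining 200 droplets had under 2 UMIs of either set.

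Depth differed between these populations. The median was 2257 UMIs and 3325 antibody counts in effector-memory droplets, 2084 and 2803 in regulatory-like droplets, and 1900.5 and 2133.5 in the remaining ones. In the 2 libraries the effector-memory droplets summed to 72253 and 102098 UMIs. The libraries shared 14 cell barcodes, of which 0 belonged to an effector-memory droplet.

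Some droplets stood apart from the rest of the gate. A total of 13 had 5% or more of their UMIs from genes of B, plasma, myeloid or erythroid cells, or 3 or more UMIs over NK and NKT markers. These were 7 of the 58 effector-memory droplets, 5 regulatory-like droplets and 1 remaining droplet. The 7 held 27.6% of all UMIs of the effector-memory droplets, 5.61% in Main1 and 43.1% in Main2. Among them 2 droplets of Main2 had 18196 and 13388 UMIs, with 48.1% and 53.0% from genes of other cells, and 245 and 426 UMIs of Jchain, the joining chain of secreted antibodies. The median over the effector-memory droplets was 0.471%. Another 2 droplets, in Main1, held 115 and 91 UMIs of Ccl5, 26 and 31 of the granzyme gene Gzma, and 8 and 6 of Ncr1, the gene of the NK receptor NKp46. They also bound the NKp46 antibody, with 8 and 11 counts against a median of 0.5. They had 0 UMIs of Cd4, which was found in only 25 of the 58 droplets. Their antibody counts were 239 and 162 for CD4, and 71 and 87 for the TCR. Comparisons are therefore given with and without these 13 droplets. This criterion was chosen after the data had been seen.

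The 4 genes that chose the droplets are given as a description. S100a6, a small calcium-binding protein gene, had a UMI in 36 of the 58 droplets, S100a4, a relative of it, in 21, Itgb1, the gene of the beta-1 integrin chain, in 41, and Ccl5, a chemokine gene, in 31. All 4 were detected in 3 droplets, 3 of them in 14, 2 in 34 and 1 in 7. The median was 5 UMIs over the 4 genes and the highest 115. At the threshold, 9 droplets had exactly 2 of these UMIs and 54 droplets just outside had 1. Those just inside had a median CD44 antibody count of 227 and those just outside 104, with 1939 and 1963.5 UMIs per droplet. In remaining droplets a Ccl5 UMI was found in 12.5%, and in B-cell droplets (B220 of 100 or more and TCR below 40, median 1666.5 UMIs), which should lack most T-cell transcripts, in 15.5%. The rule caps the remaining droplets at 1 of these UMIs, and B-cell droplets held up to 235 Ccl5 UMIs, so neither share is a background for a single UMI.

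The antibody gate had already chosen these droplets by TCR, CD4 and CD8a, and the B-cell droplets by low TCR. The T-cell transcripts below are therefore a description and no separate test of identity. Cd3d, Cd3e and Trbc2, parts of the T-cell receptor complex, each had a UMI in 91.4% of effector-memory droplets. The shares were 81.0%, 83.3% and 94.1% in the other droplets of the gate, and 2.9%, 2.0% and 5.0% in B-cell droplets. Cd4 was detected in 43.1% of effector-memory and 0.7% of B-cell droplets. Cd8a had 0 UMIs, which allows a share of droplets with a UMI of up to 6.16% (exact interval), and Cd8b1 was found in 2 droplets. The gamma-delta genes Trdc and Tcrg-C4 each had a UMI in 4 droplets, and Ncr1 in 3.

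CD44, a hyaluronan receptor that T cells gain after activation, was measured by antibody and took no part in the rule. In Main1 its counts in effector-memory droplets ran from 26 to 591 with a median of 229, against a median of 57 in the remaining droplets. In Main2 they ran from 34 to 838 with a median of 244, against 64. Of the 58 droplets 54 lay above the upper quartile of the remaining ones (122.25 counts) and 2 below their median. The median of the regulatory-like droplets was 229 over both libraries, that of the effector-memory droplets 233.5. These 2 populations were not tested against each other for antibodies.

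**Figure D1:**
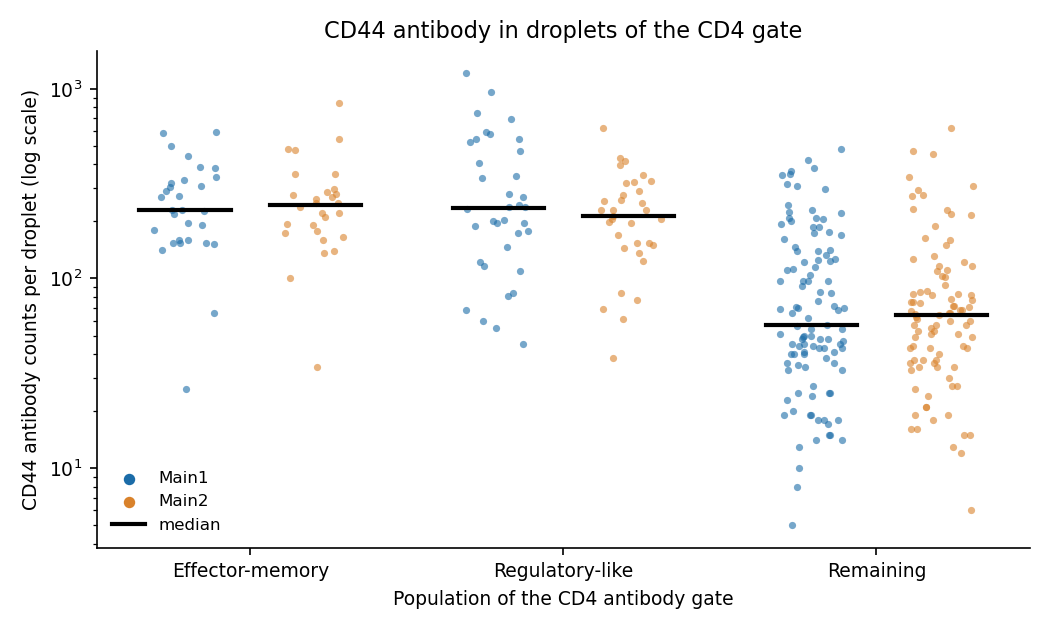
CD44 antibody counts per droplet (log axis) in the effector-memory, regulatory-like and remaining droplets of the CD4 gate, by library. Each point is 1 droplet and each bar the median. Medians of effector-memory droplets lie at 229 and 244 and those of remaining droplets at 57 and 64, and the ranges overlap.

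Antibody counts summed per library were tested with edgeR's quasi-likelihood test, scaled to total antibody counts and with the library as a block. CD44 was higher in the effector-memory droplets than in the other 269 by a log2 fold change of 0.42 (SE 0.15), with a ratio of 0.34 in Main1 and 0.51 in Main2, but this missed the threshold (edgeR adjusted p 0.0510). Only CD11b (log2 fold change -1.13) and Ly6G (-1.10), antigens of myeloid cells, passed, 2 of 30 antibodies or 6.67%. Both calls rested on Main2, where the ratios were -2.15 and -2.05, against -0.12 and -0.14 in Main1. Their medians were 6 counts in the effector-memory and in the remaining droplets alike for CD11b, and 6 and 5 for Ly6G. Without the 13 droplets that stood apart neither passed (-0.38 and -0.24), and 4 of 30 antibodies or 13.3% did. These were CD44 (0.37, edgeR adjusted p 0.0330), CD27 (-0.55), a costimulatory receptor lost by late effector cells, CD31 (-0.50) and CD5 (-0.34), an inhibitor of receptor signalling.

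Against the 200 remaining droplets alone, 5 of 30 antibodies or 16.7% passed. CD44 was higher by 0.81 (SE 0.08, edgeR adjusted p 0.00419) and Ly6C, a surface antigen of memory T cells and monocytes, by 0.95. CD31 was lower by a log2 fold change of -0.70 and CD27 by -0.45, and the TCR, a gate antigen, had -0.43. These are relative to total antibody counts, which were larger in the effector-memory droplets. Raw medians in effector-memory and remaining droplets were 28 and 35 for CD31, 41.5 and 43 for CD27, and 103.5 and 97.5 for the TCR. A fit per droplet was not run against the remaining droplets. Ly6C was called in this fit only, 1 of 8. Against all 269 others it stood at 0.32 (edgeR adjusted p 0.252), with a ratio of -0.04 in Main1 and 0.67 in Main2. Without the 13 droplets that stood apart it stood at 0.66 (edgeR adjusted p 0.111). Median counts of Ly6C were 26 in effector-memory, 20 in regulatory-like and 14 in remaining droplets. CD90, the product of Thy1, had medians of 1394.5, 842 and 604.5 counts in the same order. It did not pass against the remaining droplets (log2 fold change 0.35, edgeR adjusted p 0.210) or against all 269 others (0.37, edgeR adjusted p 0.0510). In the comparison with all 269 others the scaling moved the median log2 fold change of the 30 antibodies from -0.25 to 0.07 under TMM and 0.22 per droplet. Counted per droplet, CD44 stood at 0.89 and CD90 at 0.84, with edgeR adjusted p of 0.0749 for both. CD5 turned from -0.35 to 0.12, and the TCR from -0.31 to 0.17. CD27 and CD31 kept their sign, at -0.09 and -0.04.

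Genes were tested on UMIs summed per library and population, with the 8 rule genes left out. Nkg7, a granule protein gene of cytotoxic and NK cells (chromosome 7, 43437073 to 43438249 of GRCm38 in GENCODE vM21), was higher in the effector-memory droplets. In CPM, the UMIs of a gene scaled to a common library total, it had 692 CPM in Main1 and 304 CPM in Main2, against 109 and 86.6 CPM in the other droplets of the gate. Both effector-memory values exceeded both others, at a log2 fold change of 2.37 (SE 0.27, edgeR adjusted p 0.0373). Of its 81 UMIs in effector-memory droplets, 58 lay in the 11 droplets with 4 or more UMIs of the rule gene Ccl5. The 27 effector-memory droplets with no Ccl5 UMI stood at 103 CPM, within the range of the other droplets of the gate. A UMI of Nkg7 was found in 36.2% of effector-memory and 11.9% of other droplets, and after thinning each droplet to 1000 UMIs in 25.9% and 5.20%, against 2.17% of thinned B-cell droplets. The fold change was 1.82 (SE 0.31, edgeR adjusted p 9.19e-06) without the 13 droplets that stood apart. Against the regulatory-like droplets alone Nkg7 stood at 1.23 (SE 0.34, edgeR adjusted p 0.484). It was called in 2 of 11 fits of that comparison, with log2 fold changes from 0.56 to 1.31. The other gene called was Igkv14-126, an immunoglobulin gene whose 70 UMIs all lay in 1 of the droplets with plasma-cell transcripts, at least 80.2-fold above the floor of 3 UMIs in the other droplets of the gate. These were 2 of 1954 genes tested, or 0.102%, and 157 genes had an unadjusted p under 0.05.

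Of 16 tested naive T genes 10 had a negative and 6 a positive log2 fold change in that fit, and 0 passed. Tcf7, the TCF factor of naive and memory T cells, was found in 46.6% of effector-memory and 33.8% of other droplets, at 247 and 219 CPM. The 4 genes of the list that passed without the 13 droplets, where 16 of 1803 genes passed, were all lower. Lef1, a transcription factor of naive and early T cells (chromosome 3, 131110471 to 131224356), had 180 CPM in Main1 and 137 CPM in Main2 against 540 and 581 CPM. Its log2 fold change was -1.73 (SE 0.22, edgeR adjusted p 0.0563), and -1.49 (SE 0.29, edgeR adjusted p 1.26e-04) without the 13 droplets. A UMI was found in 31.0% against 58.4% of droplets, and in 1.54% of B-cell droplets. Ccr7, the receptor that leads cells into lymphoid tissue (chromosome 11, 99144196 to 99155077), had 83.0 and 127 CPM against 292 and 332 CPM. Igfbp4, a secreted binding protein of insulin-like growth factors, had 96.9 and 97.9 CPM against 416 and 299 CPM. Dapl1 had 41.5 and 49.0 CPM against 158 and 249 CPM. In each of these genes both effector-memory values lay below both others. Over all droplets their log2 fold changes were -1.41, -1.73 and -2.03 with edgeR adjusted p of 0.268, 0.199 and 0.199. They were -1.87, -1.68 and -2.12 without the 13 droplets, with edgeR adjusted p of 4.50e-04, 4.50e-04 and 0.00241. Low values were not particular to the effector-memory droplets. Over both libraries Lef1 had 155 CPM in effector-memory and 146 CPM in regulatory-like droplets, Ccr7 109 and 115 CPM, and Igfbp4 97.5 and 31.3 CPM. Of 9 naive T genes tested against the regulatory-like droplets 7 were positive (median 0.35, 0 called). Over all 922 genes of that comparison 473 were positive (median 0.01, 0 called).

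Without the 13 droplets 16 of 1803 genes passed, 10 higher (0.555%) and 6 lower (0.333%) in the effector-memory droplets. The remaining ones that were lower were Cytip (-1.82), a binding partner of cytohesin, and Stmn1 (-2.94), a microtubule regulator of dividing cells, which had 55.4 and 0 CPM against 106 and 137 CPM over all droplets. Among the higher genes, Ahnak, a giant scaffold protein gene, had a log2 fold change of 1.83 (SE 0.35). Crip1, a LIM domain protein gene, had 0.99 (SE 0.18), Lgals1, the gene of galectin-1, 1.05 (SE 0.19), and S100a11, another gene of the S100 family, 0.98 (SE 0.22). Id2, an inhibitor of E proteins that effector T cells use, stood at 1.41 (SE 0.28), Tnfsf8, the gene of CD30 ligand, at 1.58 (SE 0.32) and Thy1 at 0.88 (SE 0.21). Elmo1 (1.67), which acts in cell migration, and Smpdl3a (1.18) completed them. Over all droplets each of the 10 had a positive ratio in both libraries, but the sizes differed. Lgals1 had 2727 and 823 CPM against 888 and 693 CPM, and Id2 844 and 264 CPM against 199 and 173 CPM. The ratio of Id2 was 2.07 in Main1 and -0.12 in Main2 once the 13 droplets were left out. Some of these transcripts are not particular to T cells. A UMI of Crip1 was found in 74.2% of B-cell droplets, of S100a11 in 42.2% and of Ccr7 in 17.8%. The genes outside Nkg7 were named after their values had been seen.

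**Figure D2:**
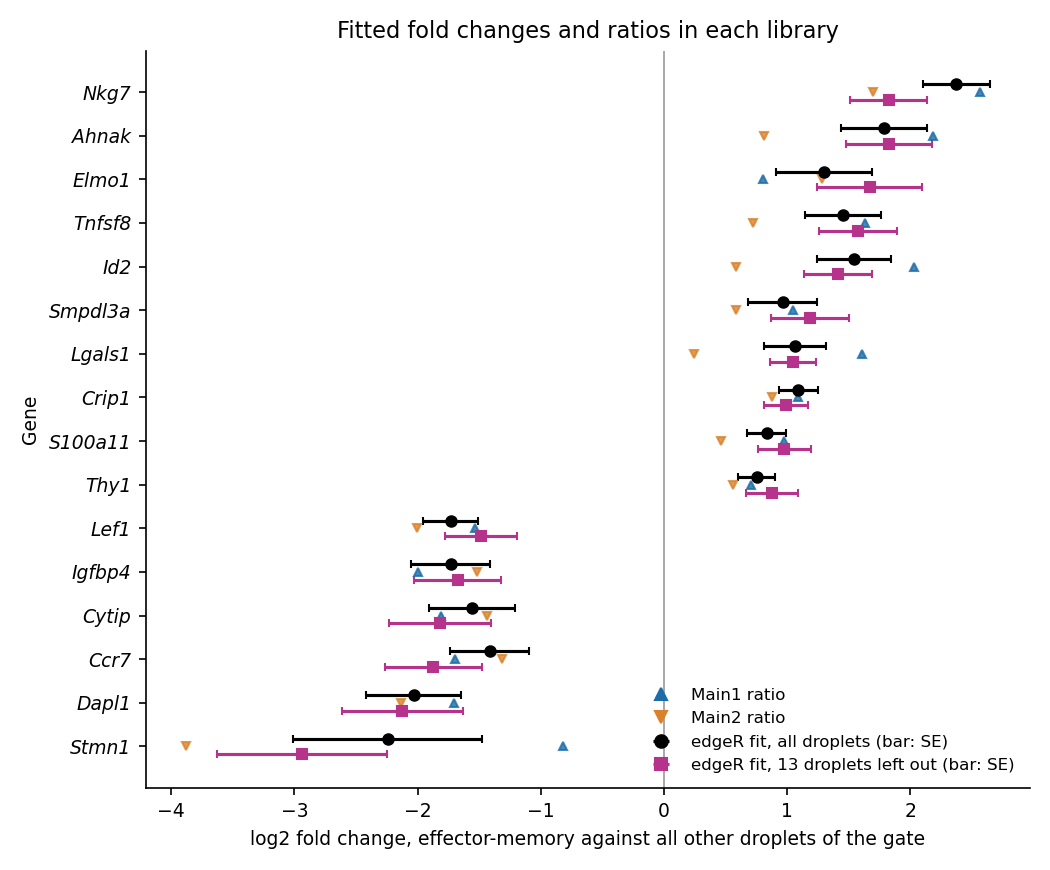
Log2 fold changes of 16 genes between effector-memory and all other droplets of the gate. Black circles and purple squares are edgeR fits over all droplets and without the 13 droplets that stood apart (bars: SE), and triangles are the ratios of each library over all droplets (pseudocount 10 CPM). Every gene shown has the same sign in both libraries, with Stmn1 the most unequal and Nkg7 the highest fit over all droplets.

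The number of calls moved widely with the droplets taken. Among droplets of 1000 to 3000 UMIs (42 effector-memory droplets), 61 of 1289 genes passed, 21 higher (1.63%) and 40 lower (3.1%). Nkg7 stood at 2.72, Ahnak at 2.65, Lgals1 at 1.81 and Lef1 at -1.88 there, and 31 of the 40 lower genes were genes of cytosolic ribosomal proteins. Gzma passed in that fit as well (4.86), with 48.4% of its effector-memory UMIs over all droplets in 1 droplet. Of its 64 UMIs, 31, 26 and 6 lay in droplets that stood apart, which this selection kept (2364, 1686 and 1586 UMIs). Each of these had 0 UMIs of Cd4, a gene found in 43.1% of effector-memory droplets, and CD4 antibody counts of 162, 239 and 218. Of 14 fits of this comparison, Nkg7 was called in 11, Crip1 and Lef1 in 9, Id2 in 8 and Lgals1 in 7, each with the same sign in all. Tyrobp stood at 2.03 over all droplets (SE 0.30, edgeR adjusted p 0.0812). It was tested in 11 fits and called in 6, and was not tested without the 13 droplets. Of its 39 UMIs in effector-memory droplets, 16, 8, 6, 3 and 2 lay in single droplets that stood apart. Tyrobp is itself among the NK and NKT markers by which droplets were set apart. With the sums of 2 libraries each fit left 1 residual degree of freedom. The variance shared across genes therefore carried the test, with prior degrees of freedom of 6.33 over all droplets and infinite ones without the 13 droplets.

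Of 19 tested genes of memory and migration all 19 had a positive log2 fold change, with a median of 0.60, and 0 passed. Over all 1954 genes 974 were positive, with a median of -0.00. Without the 13 droplets 16 of the list were tested, all 16 were positive, and Ahnak, Crip1, Id2, Lgals1 and S100a11 passed. Over all 1803 genes of that fit 897 were positive and 16 passed. The 16 tested naive T genes had a median of -0.33 with 10 negative, and 4 passed without the 13 droplets. Of 20 genes of the T-cell receptor complex and its signalling 13 were positive (median 0.10, 0 called). Of 18 actin and motility genes 12 were positive (median 0.12), and 0 were called over all droplets or without the 13. Of 8 interferon response genes 7 were negative (median -0.50, 0 called), with Ifi27l2a at -0.74. Genes of cytosolic ribosomal proteins had 78 of 82 negative, with a median of -0.20 and 0 called. The 29 genes of oxidative phosphorylation had 17 positive and a median of 0.05, and the 7 glycolysis genes 5 and 0.15. Lists were not tested as sets, and these medians are a description.

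**Figure D3:**
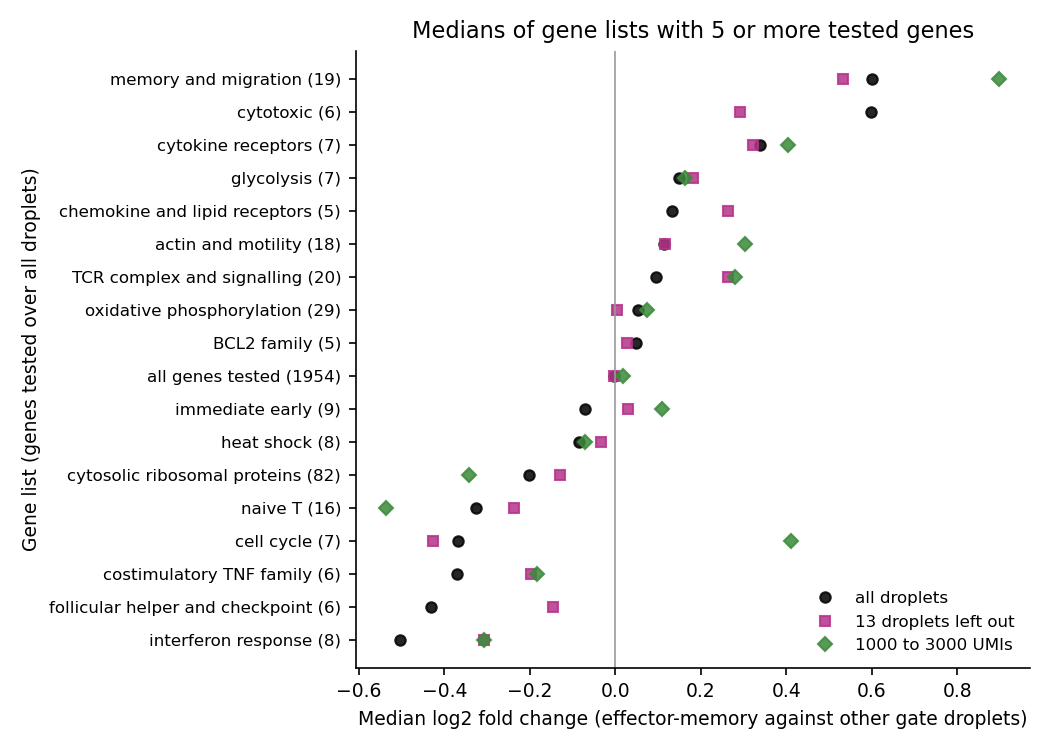
Median log2 fold change of gene lists with 5 or more tested genes (marker lists of other cells not drawn), effector-memory against all other droplets of the gate, in 3 selections of droplets. Numbers in brackets are the genes tested over all droplets. The memory and migration list lies at 0.60 over all droplets, and among the points drawn those of the cell cycle and immediate early lists differ in sign between selections.

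Genes of helper programmes were sparse. After thinning to 1000 UMIs, 25.9% of effector-memory droplets had 2 or more UMIs over 14 Th1 genes, against 14.5% of regulatory-like and 3.50% of remaining droplets. The thinned share of B-cell droplets was 1.65%. Without thinning the shares of the 3 gate populations were 56.9%, 39.1% and 9.00%. Cxcr3, a chemokine receptor of Th1 cells, was found in 16 effector-memory droplets (27.6%) and 7.43% of the others, and in 0.892% of B-cell droplets. The others pool regulatory-like and remaining droplets. Of the 46 Cxcr3 UMIs of the gate, 36 lay in effector-memory and regulatory-like droplets together. The effector-memory droplets held 8, 5 and 5 of these, at 0, 1 to 3 and 4 or more Ccl5 UMIs. Il18r1, a chain of the interleukin-18 receptor, was found in 19 (32.8%) against 6.69%, and in 0.465% of B-cell droplets. Tbx21, the gene of the Th1 factor T-bet, had 7 UMIs in 6 droplets (10.3%, against 1.10% of B-cell droplets). Ifng, the interferon-gamma gene, had 4 UMIs in 3 (5.17% against 0.0929%). No shares of the other gate droplets are given for Tbx21 and Ifng. These 4 genes were under the minimum of 50 UMIs and were not tested. Ccr2, which was, stood at 0.97 against all other droplets of the gate (edgeR adjusted p 0.513). Against the regulatory-like droplets alone it had the opposite sign, at -0.49 (edgeR adjusted p 0.821). For the cytotoxic list the thinned shares were 50% in effector-memory, 50.7% in regulatory-like and 13.5% in remaining droplets, the last close to the 13.6% of B-cell droplets. For the follicular helper and checkpoint list they were 37.9%, 58.0% and 19.0%, with 14.1% of B-cell droplets. Th2 genes reached 2 UMIs in 3.45% of thinned effector-memory, 1.45% of regulatory-like and 0.5% of remaining droplets, and in 0.260% of B-cell droplets. Without thinning the Th2 shares of the 3 gate populations were 8.62%, 13.04% and 5%, highest in regulatory-like droplets. The 4 measured Th17 genes reached 2 UMIs in 0% of thinned effector-memory droplets (6.90% without thinning). Gata3, the Th2 factor, had 16 UMIs in 14 droplets (24.1%, against 0.297% of B-cell droplets). Against all other droplets of the gate Gata3 stood at 0.17 (SE 0.42, edgeR adjusted p 0.931) and was not called.

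The effector-memory droplets were next set against the regulatory-like droplets alone. Of 922 genes 0 (0%) passed edgeR's test over all droplets, where 64 had an unadjusted p under 0.05 and DESeq2 called 0. Without the 13 droplets 11 of 778 genes (1.41%) passed, 2 higher and 9 lower. Of the list of regulatory T genes outside the rule 3 were tested and all 3 were negative, with 0 called over all droplets and Tnfrsf4 and Tnfrsf18 called without the 13. Tnfrsf4, the gene of OX40 (chromosome 4, 156013843 to 156016612), had 69.2 CPM in Main1 and 88.2 CPM in Main2 against 416 and 533 CPM over all droplets. Its log2 fold change was -2.41 (SE 0.37, edgeR adjusted p 0.155) over all droplets and -2.44 (SE 0.38, edgeR adjusted p 1.36e-07) without the 13. Tnfrsf18, the gene of GITR, on the same chromosome (156026164 to 156028895), had 152 and 137 CPM against 363 and 558 CPM, and stood at -1.40 (edgeR adjusted p 0.00299) without the 13 droplets. Izumo1r, the gene of folate receptor 4, had 484 and 108 CPM against 789 and 825 CPM, and stood at -1.30 there. The rule takes cells with little Foxp3, Ikzf2, Ctla4 and Il2ra, which such genes accompany in regulatory T cells.

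Other genes lower against regulatory-like droplets in that fit were Sh2d1a (-1.76), the gene of the adaptor SAP, Smc4 (-1.60), a condensin subunit, Ifi27l2a (-1.34), Gimap7 (-1.19), Rnaset2a (-1.09) and Ighm (-1.35), the IgM heavy chain gene of B cells. Ifi27l2a, an interferon-induced gene, had 927 and 500 CPM against 2375 and 1802 CPM over all droplets. Higher were Id2 (1.30, SE 0.31, edgeR adjusted p 0.00392) and Sp100 (1.08), a nuclear body protein gene. There the ratio of Id2 was 1.74 in Main1 and -0.16 in Main2, so its call rested on Main1. Crip1 had a log2 fold change of 0.51 (SE 0.27) and Lgals1 -0.06 (SE 0.27) without the 13 droplets, and neither was called. Of the memory and migration genes 14 of 18 tested were positive over all droplets (median 0.27, 0 called), 6 of 11 without the 13 droplets (0.04, Id2 called) and 9 of 11 between 1000 and 3000 UMIs (0.36, Id2 called). Over all genes tested 473 of 922 were positive over all droplets, with a median of 0.01. Without the 13 droplets 371 of 778 were positive, with a median of -0.02.

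The effector-memory droplets varied among themselves in Ccl5. Of the 58 droplets 27 had none, 20 had 1 to 3 UMIs and 11 had 4 or more, with 7 the fewest in that last class. Nkg7 was found in 4, 6 and 11 droplets of these classes, so that all 11 droplets high in Ccl5 had it. Nkg7 reached 103 CPM, 223 CPM and 1680 CPM in them, and 115, 375 and 950 CPM without the droplets that stood apart. Ly6C antibody had medians of 26, 21.5 and 96 counts, and 24.5, 18.5 and 245 without those droplets, of which 7 remained in the last class with a median of 4311 UMIs. Itgb1 was found in 22, 15 and 4 droplets. In the last class S100a4 had a UMI in 1 droplet, where the rule itself ties the genes, since a droplet rich in Ccl5 needs no other. CD44 antibody differed little, with medians of 261, 229 and 211.

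**Figure D4:**
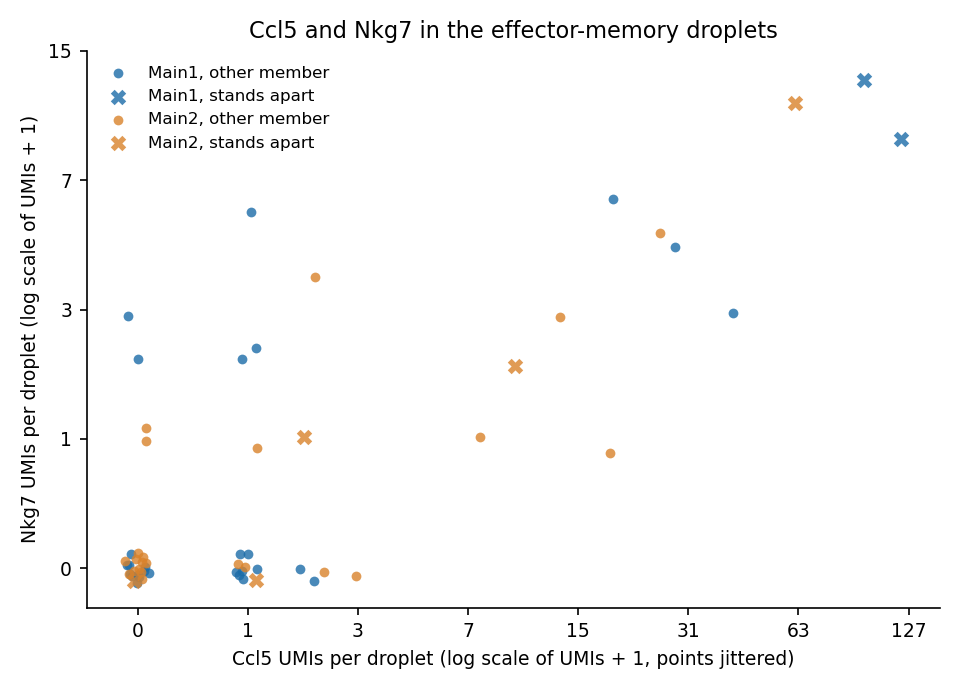
Nkg7 against Ccl5 UMIs in the 58 effector-memory droplets, both on a log scale of UMIs + 1 with jitter. Crosses are the 7 droplets that stood apart. All 11 droplets with 4 or more Ccl5 UMIs held Nkg7, and 2 crosses of Main1 have the highest Ccl5.

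The 31 droplets with a Ccl5 UMI were also set against the 27 with none. Ccl5 belongs to the rule, and a droplet without it was chosen through S100a4, S100a6 or Itgb1, so the groups differ in part by construction. The values are a description from which no difference is read. edgeR called 9 of 399 genes (2.26%). Nkg7 had 1138 and 436 CPM against 153 and 56.3 CPM (log2 fold change 3.07, SE 0.50), and the ratio was 2.82 in Main1 and 2.75 in Main2. S100a10 (-0.95), the partner of annexin A2, and Crip1 (-0.84) had negative values, and stood at -0.82 and -0.08 without the 7 droplets. Gzma had 64 UMIs in 4 droplets against 0, at least 13.7-fold above a floor of 3 UMIs in the droplets without Ccl5, and 57 of the 64 lay in the 2 droplets with Ncr1 of Main1. The other 5 were Jchain, Iglc1, Igkv14-126, Slpi and Ly6c2, of whose UMIs between 62.1% and 100% in the Ccl5 group lay in 1 droplet. Without the 7 droplets 0 of 308 genes passed (0%), with 16 at an unadjusted p under 0.05, and Nkg7 fell under the minimum of 50 UMIs, so that it was not tested. Its ratio there was 2.08 in Main1 and 2.67 in Main2. DESeq2 called 0 genes over all droplets, with 5 at an unadjusted p under 0.05.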

How the data were processed

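The deposited files hold whole-number counts, UMIs per gene and antibody tags per droplet, made by the authors with no normalization. Per the submitters' processing notes the tools included Cell Ranger 3.0.2 and bcl2fastq, with mm10 as the build. Which tool counted the antibody tags is unknown here. Droplet names beginning with m1 and m2 were read as Main1 and Main2. Of 11713 gene identifiers 11682 matched a symbol in GENCODE vM21.

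UMIs were summed per library and population and tested with edgeR 4.0.16 (TMM scaling, quasi-likelihood test, library as a block because both populations come from the same libraries). Genes needed 50 UMIs over the 4 sums, and calls an adjusted p under 0.05 (Benjamini-Hochberg over all genes tested). The SE is the absolute log2 fold change over the root of F. DESeq2 1.42.0 was an alternative. Ratios within a library use CPM + 10. Intervals are exact binomial at 95% and cover counting error only. The scripts were tested on simulated data. Droplets were not filtered, and no doublet caller was run.

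The members, gene lists and tests were chosen with earlier results of these data known. Genes were named where called with the same sign in both libraries and no more than 25% of the UMIs in 1 droplet, up to 15 a direction (10 against regulatory-like droplets and for Ccl5), together with up to 4 called genes of a list, or its 2 genes with the most UMIs. Not every gene that the list part of this rule yields is printed. Npm1, Ms4a6b, Slamf6 and Capg are among those left out, and the choice followed no stated rule. Other names were chosen after their values were seen. Both criteria for droplets that stand apart were added after seeing the data: the first, 5% of UMIs from other cells alone, was replaced by the wider one used in the report. A result that rests on a withheld item is not reported here.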

Additional observations from a re-analysis of the deposited data

Results flagged for a closer look

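In the comparison with regulatory-like droplets the 2 libraries went opposite ways for 2 genes, and the difference was not tested. The log2 ratio of Ighm was -0.82 in Main1 and 3.35 in Main2, a difference of -4.17, and 58.9% of its UMIs in effector-memory droplets lay in 1 droplet. The log2 ratio of Lgals1 was 0.57 in Main1 and -0.78 in Main2, a difference of 1.35.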

How the results depend on the processing

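With 2 libraries and 1 residual degree of freedom, counts of calls moved with nearly every choice. The effector-memory share of the gate stood between 17.3% and 18.2% with 1 library left out, and moved to 34.3% when 1 UMI of the 4 genes was enough.

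Genes called against all other droplets of the gate numbered 2 in the report's fit. They were 0 with 10 or more UMIs per gene and 0 when 1 rule UMI was enough, 1 by DESeq2, 6 with relative log expression scaling and 8 with 3 rule UMIs. A stricter antibody gate gave 13, leaving out the 13 droplets 16, leaving out droplets with 2 or more B-cell UMIs 25, the 5% criterion alone 29, the reference without regulatory-like droplets 32, a minimum of 1 UMI per gene 59, and droplets of 1000 to 3000 UMIs 61. Against regulatory-like droplets 0 genes were called in the report's fit. There were 3 without droplets with B-cell UMIs, 6 with relative log expression scaling, 6 between 1000 and 3000 UMIs, 11 without the 13 droplets, 15 under the 5% criterion, 26 with a minimum of 1 UMI and 36 with 10. For the Ccl5 division the 9 calls became 0 by DESeq2 and 0 without the 7 droplets, 1 between 1000 and 3000 UMIs, 4 without droplets with B-cell UMIs, 4 under the 5% criterion, 18 with a minimum of 1 UMI and 31 with 10. For antibodies the 2 calls became 0 with TMM, 0 per droplet, 0 under the 5% criterion, 4 without the 13 droplets and 5 without regulatory-like droplets. The cause of these moves was not tested.

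Both populations come from the same libraries, so the library pairs them. Without this replicate block 0 genes were called against all other droplets (152 at an unadjusted p under 0.05), 0 against regulatory-like droplets (78), 0 for the Ccl5 division (17), and 0 antibodies (8).

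Directions turned in a few cases, and the cause was not tested. Ighm against regulatory-like droplets stood at 1.57, and at -1.11 between 1000 and 3000 UMIs, -1.15 without droplets with B-cell UMIs, -1.35 without the 13 droplets and -1.33 under the 5% criterion. With 1 library left out it ran from -0.82 to 3.35. Lgals1 in that comparison stood at 0.07, at -0.0063 without droplets with B-cell UMIs and -0.064 without the 13 droplets, and ran from -0.78 to 0.57. Jchain in the Ccl5 division turned to -0.30 with 2 or more Ccl5 UMIs. CD5 turned to 0.12 per droplet. Ly6C ran from -0.038 to 0.67 with 1 library left out. Of 708 values of 59 named genes and antibodies under alternatives, 475 kept their direction and side of the threshold, 50 lost the call, 172 gained one and 11 turned.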
